A study of Mus musculus with 46 samples.

Results

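The members described here are 36 genes of the cell cycle, taken by name from the 46264 gene symbols of the deposited table. Of these, 25 act in mitosis and 11 in DNA replication, and all 36 are in the table. The 46 libraries come from a mouse model of mucous membrane pemphigoid, in which autoantibodies bind laminin 332 of the epithelial basement membrane. Blood and neutrophils had 5 libraries from mice given intravenous immunoglobulin (IVIG) and 5 from mice given phosphate-buffered saline (PBS) each, monocytes had 3 and 5, and skin had 3 and 3. A separate experiment labelled Ics had 4 libraries titled unstimulated (0 h), 4 stimulated for 3 h and 4 stimulated for 6 h. The labels neither expand Ics nor name its cells, and there are no unstimulated libraries at 3 h or 6 h, so stimulus and culture time cannot be told apart. Strain, genotype, sex and age are not given in the sources used here, and the protocol names bone marrow derived neutrophils and monocytes beside whole blood.

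A dividing cell copies its DNA in S phase and separates the copies in mitosis, and each step has its own wave of transcripts. The replication wave is led by E2F factors and includes the MCM helicase, which opens the double helix, the sliding clamp PCNA and the enzymes that make deoxynucleotides. The mitosis wave comes later, under the MuvB complex with B-MYB and FOXM1, and includes cyclin B, Aurora and Polo kinases, kinetochore proteins and spindle motors. In bone marrow the granulocyte and monocyte precursors divide, whereas mature neutrophils and circulating red cells do not.

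Library totals ran from 18965431 to 43176537 estimated counts. In the 12 Ics libraries, every member had at least 71 counts. The Ics libraries carried 87780 to 93397 CPM (counts per 1000000 counts of a library) of a list of 10 mature neutrophil genes at 0 h and 12870 to 13912 CPM of 9 monocyte genes. A list of 8 keratinocyte genes stayed at or under 0.232 CPM, with 6 of the 8 at 0 at each time. Of the 34 libraries labelled as a tissue or cell type, 9 carried markers of another one, as given with the tissue results below. In bulk RNA, fewer cells of a type and less RNA per cell cannot be told apart.

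In the Ics experiment, mitosis transcripts had fallen at 3 h while most replication transcripts had not, and replication transcripts were lower at 6 h. At 3 h against 0 h, 21 of the 25 mitosis members were lower and 0 were higher, where 27.5% of the 14996 genes tested were lower, 26.9% higher and 54.4% called in either direction. Their median log2 change was -0.85, beside -0.06 over all genes tested. Of the 11 replication members, 2 were higher, 1 was lower and 8 did not pass the test, with a median log2 change of 0.00. With the replicate number as a block (same-numbered libraries of these times correlated over 0.1 in 4 of 4 pairs), 2 were higher and 2 lower, and 22 mitosis members were lower. At 6 h against 0 h, 23 of 25 mitosis members were lower and 0 higher, with a median of -0.87, where 30.4% of all genes were lower, 29.6% higher and 60.0% called in all. For replication at 6 h, 7 of 11 members were lower and 0 higher, with a median of -0.47, beside -0.06 over all genes. A gene is said to have risen, fallen or changed where its Benjamini-Hochberg adjusted p in edgeR's quasi-likelihood test was under 0.05. These 3 comparisons share libraries and are not independent of each other.

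Between 3 h and 6 h the pattern was the other way round. Of the replication members, 9 of 11 fell from 3 h to 6 h and 0 rose, with a median log2 change of -0.41. Among mitosis members 2 rose and 2 fell in that interval, with a median of -0.02. Over all genes, 20.5% rose and 20.3% fell, 40.8% in all, with a median of -0.03. Without the first 3 h library, 5 replication members fell instead of 9 and 4 mitosis members rose instead of 2.

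**Figure D1:**
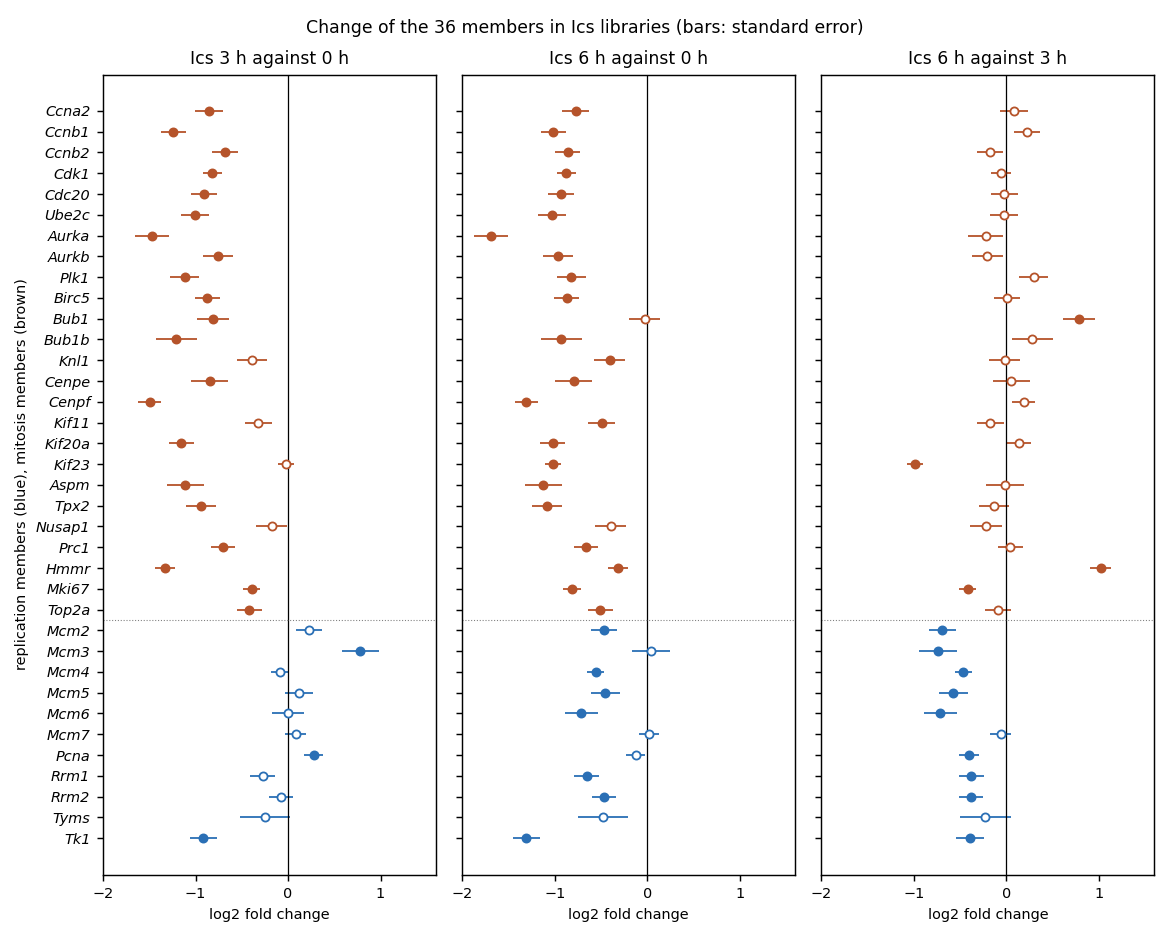
Log2 fold change of each of the 36 members in the 3 Ics comparisons, with bars for the standard error and filled points for adjusted p under 0.05 in edgeR. The brown mitosis points lie left of 0 in the first panel with a median of -0.85 while the blue replication points lie around 0.00, and in the third panel 9 of 11 blue points are filled to the left of 0.

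Each library showed the same order. The median CPM of the 25 mitosis members divided by that of the 11 replication members, a ratio that depends on gene length and is compared only between libraries, was 0.871 to 0.909 in the 4 libraries at 0 h. It was 0.441 to 0.493 at 3 h and 0.634 to 0.734 at 6 h, with no overlap between the times. Against the 0 h mean of each gene, the median log2 shift of mitosis members was -0.56 to -1.10 in the 3 h libraries and -0.65 to -1.06 at 6 h. For replication members the same shift was -0.21 to 0.32 at 3 h and -0.20 to -0.71 at 6 h. The replication shift at 3 h therefore straddled 0 from library to library.

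The scale matters for the level of both groups. A change of scaling moves all genes of a library by the same factor, so it leaves the gap between the groups almost unchanged by construction. Scaled by library totals alone, the median of all genes at 3 h was -0.30 instead of -0.06, the mitosis median was -1.10 and the replication median -0.25. Relative to all genes, the mitosis median was -0.80 and the replication median 0.06 under both scalings, which follows from this and is not a check of the gap. With library totals alone 1 replication member was higher at 3 h and 3 were lower.

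Marker genes of cell types moved at the same times. Over all genes tested, 27.5% were lower and 26.9% higher at 3 h, and 30.4% and 29.6% at 6 h. Of 7 genes of granulocyte precursors, which include the primary granule genes Mpo and Elane, 6 were lower at 3 h and 7 at 6 h, with medians of -1.18 and -2.58. Their summed level was 2842 to 3325 CPM at 0 h, 2561 to 3044 CPM at 3 h and 1638 to 1930 CPM at 6 h, with 0 of the 7 at 0. All 12 erythroid genes were lower at both times, with medians of -2.11 and -3.56, and summed to 118 to 301 CPM at 0 h and 10.1 to 23.7 CPM at 6 h. Of 6 platelet genes 5 were lower at both times, with medians of -2.37 and -2.35, and their sum went from 130 to 135 CPM at 0 h to 29.3 to 37.9 CPM at 3 h and 43.1 to 56.1 CPM at 6 h. Of the 9 monocyte genes 6 were lower and 3 higher at 3 h and 5 and 2 at 6 h, and they summed to 8772 to 10666 CPM at 3 h and 8351 to 9080 CPM at 6 h. Of the 10 mature neutrophil genes 3 were lower and 1 higher at 3 h and 7 and 1 at 6 h, with sums of 77700 to 92670 CPM at 3 h and 59375 to 64964 CPM at 6 h. The sums at 6 h were below all those at 0 h for each of these 5 lists, and also for the lymphoid and hair follicle lists. Other lists did not fall. Fibroblast genes summed to 20.2 to 30.2 CPM at 0 h and 29.5 to 40.7 CPM at 6 h, and sums of B precursor, endothelium and keratinocyte genes overlapped between these times. The part of these cells in the fall of the members was not tested.

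The members' promoters differed between the groups by the sequences they hold. Promoters are 250 bases before to 50 bases after a gene's start, from RefSeq on GRCm38.p6, and were found for 31 of the 36 members, 21 of mitosis and 10 of replication. The CHR element (cell cycle genes homology region, TTTGAA on either strand) is known as a binding site of the MuvB complex, CCAAT as that of NF-Y, and E2F sites as that of the E2F factors. CHR was present in 16 of 21 mitosis promoters (76.2%) and 1 of 10 replication promoters (10.0%), compared with 15.4% of the 10575 promoters of genes tested in Ics and 20.2% of all 27025 promoters. Within 50 bases of the start it was present in 15 mitosis promoters (71.4%) and 0 replication promoters, against 4.24% and 5.72%. The E2F forms TTTGGCGC, TTTGCCGC, TTTCGCGC and TTTCCCGC were found in 4 of 10 replication promoters (Mcm3, Mcm5, Mcm6 and Mcm7) and in 1 of 21 mitosis promoters (Cdk1), against 4.51% and 2.60%. CCAAT was in 18 mitosis and 8 replication promoters, against 42.9% and 41.1%. The variant TTTAAA was in 7 mitosis and 3 replication promoters, against 11.3% and 14.9%. Matches of these letters are a description of the windows and not evidence of binding in these cells.

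**Figure D2:**
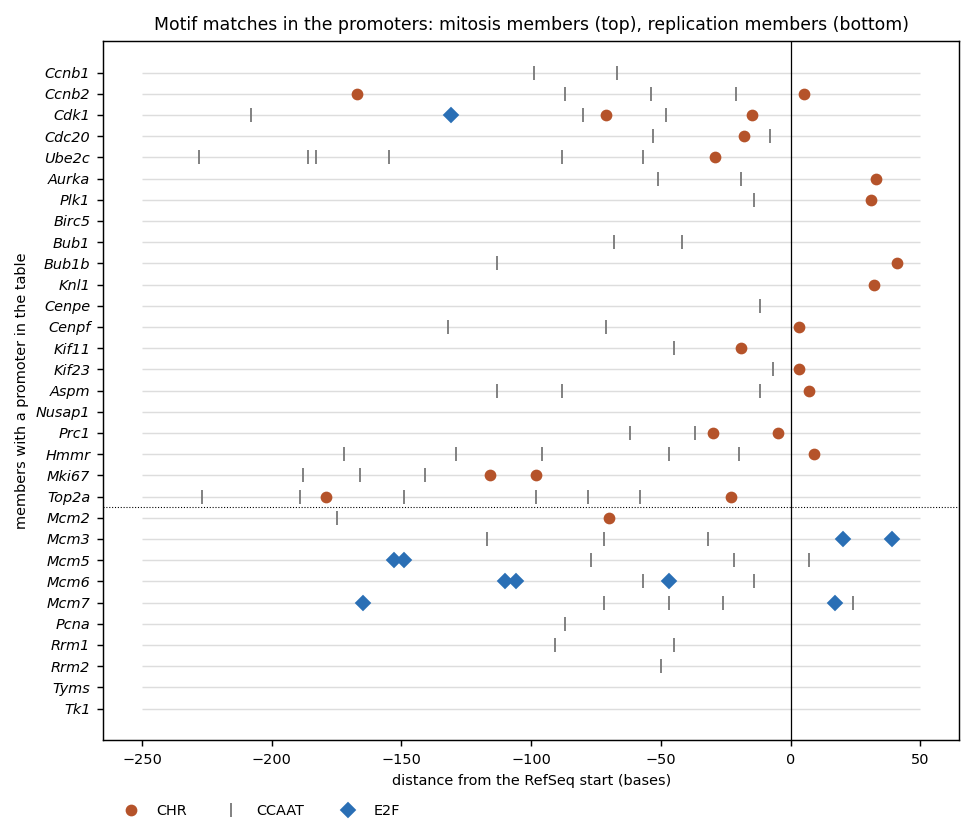
Position of CHR (brown circles), CCAAT (grey ticks) and E2F (blue diamonds) matches from 250 bases before to 50 bases after the RefSeq start, one line for each of the 31 members with a promoter. The brown circles of 15 mitosis members gather within 50 bases of the start, and the blue diamonds lie in Cdk1 and in the 4 MCM genes named in the text.

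Upstream stretches are shown for a mitosis gene with all 3 motifs (Cdk1), for Ube2c, which the blood results turn on, and for 2 MCM genes, each 5′ to 3′ on the gene's strand of GRCm38.p6 and ending before the first annotated start. Capitals mark CHR, CCAAT and E2F matches on either strand. In Mcm5 and Mcm6, 2 E2F matches on opposite strands overlap and form 1 run of capitals.
Cdk1, chr10:69352939-69353088, strand -, bases -176 to -27: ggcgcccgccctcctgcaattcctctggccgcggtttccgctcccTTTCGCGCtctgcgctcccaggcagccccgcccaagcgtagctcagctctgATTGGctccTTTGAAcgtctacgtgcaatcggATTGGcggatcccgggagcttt
Ube2c, chr2:164769748-164769897, strand +, bases -181 to -32: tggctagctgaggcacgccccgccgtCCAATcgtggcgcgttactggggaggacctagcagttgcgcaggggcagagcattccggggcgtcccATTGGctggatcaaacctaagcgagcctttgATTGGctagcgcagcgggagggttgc
Mcm5, chr8:75109318-75109467, strand +, bases -191 to -42: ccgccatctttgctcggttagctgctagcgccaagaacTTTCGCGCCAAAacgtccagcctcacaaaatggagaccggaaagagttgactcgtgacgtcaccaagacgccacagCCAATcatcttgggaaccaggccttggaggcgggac
Mcm6, chr1:128359706-128359855, strand -, bases -150 to -1: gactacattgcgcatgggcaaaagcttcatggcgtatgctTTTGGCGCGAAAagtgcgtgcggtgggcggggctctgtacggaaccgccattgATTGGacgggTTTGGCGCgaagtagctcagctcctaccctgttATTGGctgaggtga
The sites within 50 bases of the start are shown next for 12 mitosis members, as 30 bases with the CHR in capitals.
Cdk1, chr10:69352910-69352939, strand -: taccgcggcgagTTTGAAactgctggcact
Ccnb2, chr9:70421533-70421562, strand -: agcggcgcggtaTTTGAAtcgcggaccggg
Cdc20, chr4:118437344-118437373, strand -: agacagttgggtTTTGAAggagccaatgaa
Ube2c, chr2:164769888-164769917, strand +, shown on the opposite strand: ccgccgcccgcgTTTGAAttgcaaccctcc
Aurka, chr2:172370521-172370550, strand -: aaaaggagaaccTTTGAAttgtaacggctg
Plk1, chr7:122159453-122159482, strand +: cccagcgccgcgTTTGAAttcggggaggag
Cenpf, chr1:189688067-189688096, strand -: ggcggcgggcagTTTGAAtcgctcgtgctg
Hmmr, chr11:40733412-40733441, strand -: agttgaggtaaaTTTGAAttcaggcgagct
Kif23, chr9:61946780-61946809, strand -: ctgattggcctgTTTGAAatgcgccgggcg
Kif11, chr19:37376351-37376380, strand +, shown on the opposite strand: ccgcgcctcaatTTTGAAaaatggagacga
Knl1, chr2:119047138-119047167, strand +: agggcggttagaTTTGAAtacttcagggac
Top2a, chr11:99024195-99024224, strand -, shown on the opposite strand: tccctagtttcaTTTGAAcctttatctagc
In the Ics libraries, Kif23 and Hmmr changed from 3 h to 6 h where most mitosis members did not. Both hold a CHR near the start as Cdk1 and Cdc20 do. So do Kif11 and Knl1, which did not pass at 3 h, though Kif11 passed with the replicate block. Bub1, which rose from 3 h to 6 h, and Nusap1, which did not pass at 3 h, hold neither CHR nor the variant TTTAAA in the window. Ccnb1, Birc5 and Cenpe have no CHR there and hold TTTAAA.

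The cyclins and their kinase fell together. Beside the counts by role given from here on, 27.5% of all genes were lower and 26.9% higher at 3 h. At 6 h these shares were 30.4% and 29.6%. Ccna2, Ccnb1 and Ccnb2 code the cyclins of late S phase and mitosis and Cdk1 the kinase they switch on, and 4 of 4 were lower at both 3 h and 6 h. Ccnb1 (chromosome 13, 100778650 to 100786570) was at 15.4, 13.2, 11.9 and 14.3 CPM at 0 h, at 6.87, 5.56, 5.27 and 5.48 CPM at 3 h and at 7.85, 6.66, 5.37 and 7.18 CPM at 6 h. Every stimulated library was below every unstimulated one. The log2 change was -1.24 ± 0.135 at 3 h (SE, n = 4 and 4, adjusted p = 2.11e-06) and -1.02 ± 0.133 at 6 h (adjusted p = 1.25e-05).

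Cdk1 (chromosome 10, 69335146 to 69352938) stood at 29.9, 22.8, 26.1 and 24.3 CPM at 0 h, at 16.7, 14.3, 12.5 and 15.0 CPM at 3 h and at 15.2, 13.6, 13.4 and 14.1 CPM at 6 h. The times after stimulation overlapped with each other and not with 0 h. Its log2 change was -0.82 ± 0.105 at 3 h (adjusted p = 1.10e-05) and -0.87 ± 0.105 at 6 h (adjusted p = 4.97e-06). Cdc20 and Ube2c serve the anaphase-promoting complex, Cdc20 as the activator that picks its targets and Ube2c as the ubiquitin carrier. Both fell: Ube2c went from 27.4 ± 4.22 CPM at 0 h to 13.7 ± 2.30 at 3 h and 13.4 ± 2.26 at 6 h (SD, n = 4).

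Among the mitotic kinases and their partners, 4 of 4 fell at 3 h and at 6 h. Aurka (chromosome 2, 172356190 to 172370535), the kinase of centrosomes and spindle poles, was at 14.9, 11.8, 12.9 and 14.5 CPM at 0 h, at 5.31, 5.36, 3.33 and 5.48 CPM at 3 h and at 5.76, 3.83, 3.39 and 3.72 CPM at 6 h. Its log2 change of -1.69 ± 0.184 at 6 h was the most negative of the 36 members in that comparison (adjusted p = 1.85e-06), and at 3 h it was -1.47 ± 0.183 (adjusted p = 8.14e-06). Aurkb and Birc5, both of the chromosomal passenger complex, were at -0.76 and -0.87 at 3 h. Plk1, the Polo kinase of mitotic entry, was at -1.12 at 3 h and -0.82 at 6 h.

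Kinetochore and checkpoint genes separated after 3 h. Cenpf (chromosome 1, 189640606 to 189688086), a protein of the outer kinetochore, was at 31.4, 27.5, 38.0 and 31.6 CPM at 0 h, at 13.5, 10.4, 10.2 and 11.3 CPM at 3 h and at 14.7, 14.0, 11.1 and 12.1 CPM at 6 h. All 8 stimulated libraries were below the 4 unstimulated ones, with log2 changes of -1.49 ± 0.126 at 3 h (adjusted p = 1.35e-07) and -1.31 ± 0.124 at 6 h (adjusted p = 4.45e-07). Bub1 (chromosome 2, 127801122 to 127831865), a kinase of the spindle checkpoint, was at 13.9, 13.2, 11.5 and 14.4 CPM at 0 h, 9.95, 7.71, 6.74 and 5.67 CPM at 3 h and 13.5, 12.4, 9.89 and 16.2 CPM at 6 h. Bub1 fell at 3 h, by 0.81 on the log2 scale, and rose by 0.79 ± 0.173 from 3 h to 6 h (adjusted p = 0.00213), so that the 6 h and 0 h libraries overlapped (-0.02 ± 0.168, adjusted p = 0.909). Bub1b, the checkpoint protein BUBR1, was at -1.21 at 3 h and -0.93 at 6 h, and Cenpe, a kinetochore motor, at -0.85 and -0.79. Knl1, the scaffold on which Bub1 and Bub1b sit, did not pass at 3 h (-0.39 ± 0.165, adjusted p = 0.0610) and was lower at 6 h (-0.41 ± 0.165, adjusted p = 0.0457). Without 1 library, the 6 h call was lost in 8 of the 12 cases, with log2 changes of -0.53 to -0.28. With the replicate block it was lost as well (adjusted p = 0.0583).

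Of the 8 genes of the spindle and its midzone, 5 were lower at 3 h and 7 at 6 h. Kif23 (chromosome 9, 61915905 to 61946774), the motor of the central spindle needed for cytokinesis, was at 55.8, 51.3, 57.9 and 59.6 CPM at 0 h, at 47.7, 52.9, 55.5 and 64.6 CPM at 3 h and at 26.9, 26.6, 27.2 and 30.4 CPM at 6 h. The 0 h and 3 h libraries overlapped (-0.02 ± 0.0861, adjusted p = 0.825), and the 6 h libraries lay below both. It fell by 1.02 on the log2 scale from 0 h to 6 h (SE 0.0879, adjusted p = 1.65e-07) and by 0.99 from 3 h to 6 h (SE 0.0881, adjusted p = 7.08e-07).

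Hmmr (chromosome 11, 40701395 to 40733422), a microtubule-binding protein of the spindle, took the opposite course. It was at 45.2, 41.3, 34.2 and 42.6 CPM at 0 h, at 16.3, 15.6, 13.6 and 19.4 CPM at 3 h and at 36.0, 33.5, 29.2 and 32.8 CPM at 6 h. The 3 h libraries were below all others. Hmmr fell at 3 h (-1.33 ± 0.113, adjusted p = 1.51e-07), rose by 1.02 ± 0.113 from 3 h to 6 h (adjusted p = 5.80e-06) and was still lower at 6 h than at 0 h (-0.31 ± 0.109, adjusted p = 0.0234). This last call was lost in 5 of the 12 cases without 1 library (-0.39 to -0.26). Hmmr and Bub1 were the mitosis members that rose between 3 h and 6 h, and Kif23 and Mki67 those that fell.

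Kif11 and Nusap1, the spindle motor Eg5 and a protein of spindle microtubules, did not pass at 3 h, at -0.32 ± 0.143 and -0.17 ± 0.167, though Kif11 passed with the replicate block (-0.32 ± 0.0855, adjusted p = 0.00773). At 6 h Kif11 was lower (-0.49) and Nusap1 did not pass (-0.39 ± 0.168, adjusted p = 0.0553), though Nusap1 was lower with the block (-0.41, adjusted p = 0.000941). Aspm, Kif20a, Tpx2 and Prc1, which organise spindle poles and the midzone, were lower at both times, from -0.71 to -1.15 at 3 h. Mki67 (chromosome 7, 135689784 to 135716361) codes Ki-67, the coat protein of mitotic chromosomes used as a proliferation marker. It was at 394, 349, 340 and 371 CPM at 0 h, 315, 249, 278 and 265 CPM at 3 h and 224, 217, 167 and 220 CPM at 6 h. The 3 times did not overlap, with log2 changes of -0.39 ± 0.0927 at 3 h (adjusted p = 0.00231) and -0.81 ± 0.0932 at 6 h (adjusted p = 3.14e-06). Top2a, which untangles sister DNA, was at -0.42 and -0.51, and its call at 3 h was lost in 3 of the 12 cases without 1 library (-0.54 to -0.34).

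**Figure D3:**
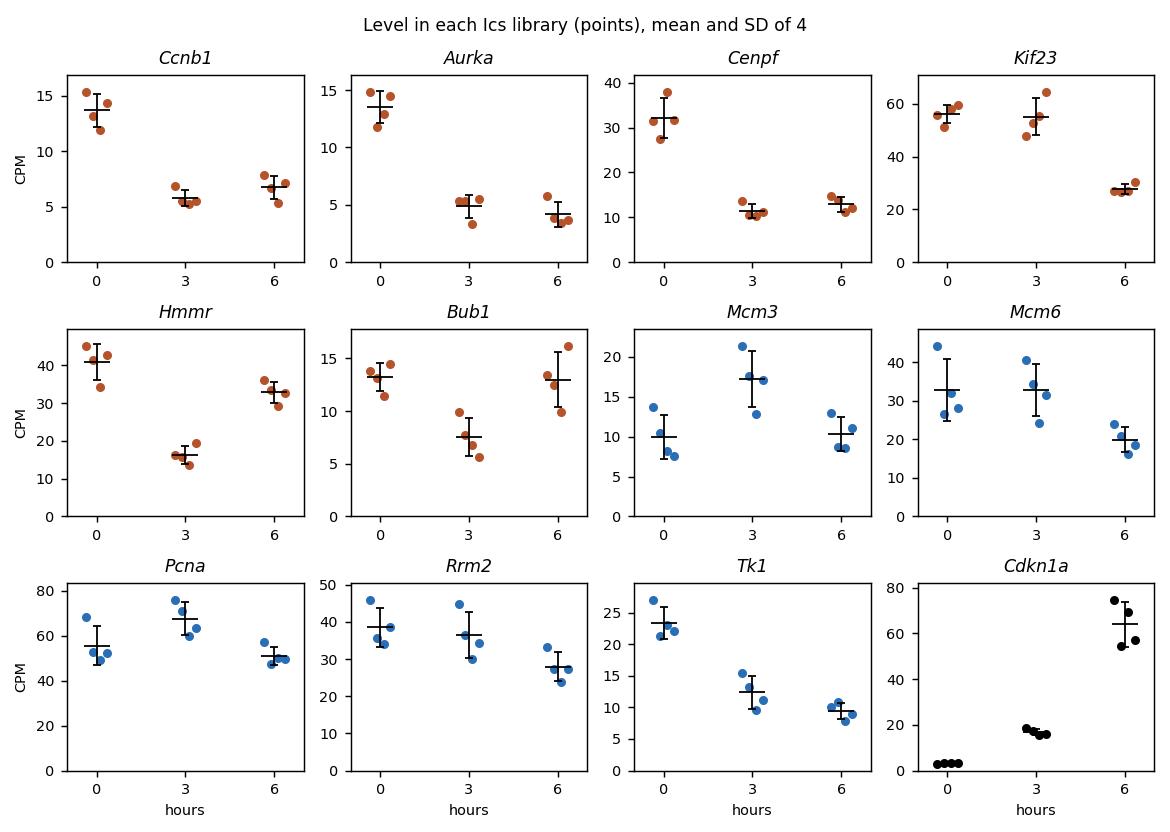
Level (CPM, from 0) of 6 mitosis members (brown), 5 replication members (blue) and Cdkn1a (black) in each of the 12 Ics libraries at 0, 3 and 6 h, with the mean and SD of 4. Hmmr and Bub1 dip at 3 h and are higher again at 6 h, Kif23 is level to 3 h and drops to about 27 CPM at 6 h, and Mcm3 peaks at 3 h.

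Most MCM genes did not pass at 3 h and were lower at 6 h. Of the 6 subunits of the replicative helicase, 1 rose at 3 h, 5 did not pass and 0 fell, and 4 were lower at 6 h. Mcm3 (chromosome 1, 20802968 to 20820312) was at 13.7, 10.4, 8.23 and 7.61 CPM at 0 h, at 21.4, 17.6, 12.8 and 17.1 CPM at 3 h and at 12.9, 8.65, 8.52 and 11.1 CPM at 6 h. The 3 h libraries overlapped the 0 h libraries by 1 library on either side. Its log2 change was 0.78 ± 0.200 at 3 h (adjusted p = 0.00410), -0.74 ± 0.200 from 3 h to 6 h (adjusted p = 0.00874) and 0.04 ± 0.202 at 6 h against 0 h (adjusted p = 0.871), where library totals alone give -0.12.

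Mcm6 (chromosome 1, 128331590 to 128359664) was at 44.3, 26.5, 31.9 and 28.2 CPM at 0 h, at 40.6, 34.4, 24.3 and 31.5 CPM at 3 h and at 24.0, 20.9, 16.2 and 18.5 CPM at 6 h. The 0 h and 3 h libraries overlapped throughout (0.00 ± 0.176, adjusted p = 0.999), and the 6 h libraries were below both, with -0.71 ± 0.178 against 0 h (adjusted p = 0.00310). Mcm4 was at 36.6 ± 2.98 CPM at 0 h, 34.3 ± 3.62 at 3 h and 24.8 ± 2.47 at 6 h (SD, n = 4), a log2 change of -0.56 ± 0.0933 at 6 h (adjusted p = 0.000123). Mcm2 and Mcm5 were at 0.23 ± 0.143 and 0.12 ± 0.156 at 3 h, which did not pass and which library totals alone turn to -0.02 and -0.13, and at -0.47 and -0.46 at 6 h, where both were lower. Without 1 library, the 6 h call was lost in 1 case of 12 for Mcm2 (-0.53 to -0.33) and in 4 for Mcm5 (-0.58 to -0.37). Mcm7 did not pass in any of the 3 comparisons, with log2 changes of 0.08 ± 0.110, 0.02 ± 0.110 and -0.06 ± 0.111 at 3 h, at 6 h and between them, and each of these changes sign under library totals alone (-0.16, -0.14 and 0.02).

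Pcna (chromosome 2, 132249162 to 132253314), the clamp that holds polymerases on DNA, was at 68.3, 52.9, 49.2 and 52.2 CPM at 0 h, at 76.0, 70.9, 59.9 and 63.3 CPM at 3 h and at 57.1, 47.3, 50.1 and 49.5 CPM at 6 h. The 3 h libraries were higher than 3 of the 4 libraries at 0 h. It rose by 0.28 ± 0.104 at 3 h (adjusted p = 0.0346) and did not pass at 6 h against 0 h (-0.13 ± 0.104, adjusted p = 0.312). The rise no longer passed without 1 library in 5 of the 12 cases.

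Enzymes of nucleotide supply were not alike. Tk1 (chromosome 11, 117815526 to 117826092), the thymidine kinase of the salvage route, was at 27.0, 21.3, 23.1 and 22.1 CPM at 0 h, at 15.5, 13.3, 9.59 and 11.1 CPM at 3 h and at 10.0, 10.8, 7.86 and 9.00 CPM at 6 h. Every 3 h library was below every 0 h library, and Tk1 was the replication member that fell at 3 h (-0.92 ± 0.144, adjusted p = 8.00e-05), with -1.31 ± 0.146 at 6 h (adjusted p = 2.30e-06). Rrm1 and Rrm2 code the subunits of ribonucleotide reductase, which makes deoxynucleotides. Rrm1 (chromosome 7, 102441695 to 102469771) went from 36.0 ± 4.89 CPM at 0 h to 29.8 ± 4.58 at 3 h, which did not pass (-0.27 ± 0.134, adjusted p = 0.102; with the replicate block it was lower, adjusted p = 0.0223), and to 22.9 ± 3.67 at 6 h (-0.65 ± 0.135, adjusted p = 0.000786). Rrm2 (chromosome 12, 24708241 to 24714146) was at 38.5 ± 5.29, 36.4 ± 6.17 and 27.9 ± 3.93 CPM at 0, 3 and 6 h, with -0.08 ± 0.130 at 3 h (adjusted p = 0.628) and -0.47 ± 0.131 at 6 h (adjusted p = 0.00675). Tyms, thymidylate synthase, did not pass in any of the 3 comparisons, though with the replicate block it was lower at 6 h (-0.54, adjusted p = 0.0327).

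Other genes of the same pathways were counted from lists. All genes tested, for comparison, were higher in 26.9% and lower in 27.5% of cases at 3 h, and in 29.6% and 30.4% at 6 h. Of 44 further mitosis genes, 25 were lower and 4 higher at 3 h, and 26 lower and 4 higher at 6 h, with medians of -0.39 and -0.46. Among them Anln, a scaffold of the cleavage furrow, was lower at 3 h (-0.90) and at 6 h (-1.06), while Zwint, a kinetochore protein, was higher at both (0.91 and 0.99). Cks2, a partner of Cdk1, was higher at 3 h (0.82) and did not pass at 6 h (-0.01). Pttg1, securin, was higher at 6 h (0.97). Gtse1, a microtubule protein that also acts on p53, was at 8.21 ± 0.614 CPM at 0 h, 5.58 ± 0.613 at 3 h and 16.6 ± 3.44 at 6 h, lower at the first time and higher at the second.

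Of 17 genes that license and fire origins of replication, 4 were higher and 4 lower at 3 h, and 1 was higher and 6 lower at 6 h. Over all genes 54.4% were called at 3 h and 60.0% at 6 h, a larger share than in each list of this paragraph. Cdt1 and Cdc6 load the MCM helicase, and Gins2 is part of its active form. Cdt1 rose from 11.1 ± 1.18 CPM to 18.0 ± 1.12 at 3 h (0.69 ± 0.0993, adjusted p = 3.61e-05) and was at 11.7 ± 0.966 at 6 h. Cdc6 rose by 0.80 and Gins2 by 1.35 at 3 h, and from 3 h to 6 h Cdc6 fell by 0.96 and Gins2 by 0.56. Of 23 replisome and polymerase genes 5 were higher and 3 lower at 3 h, and 3 and 3 at 6 h. Of 14 other nucleotide supply genes 3 were higher and 2 lower at 3 h, and 4 and 3 at 6 h, with Rrm2b, the p53-regulated subunit of ribonucleotide reductase, higher at both times (0.44 and 0.90).

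A list of 13 genes held the D and E cyclins, Cdk2, Cdk4, Cdk6, the 3 Cdc25 phosphatases, Myc and Skp2. Of these, 1 was higher (Ccne2) and 4 lower (Ccnd3, Cdk4, Cdc25b and Cdc25c) at 3 h, and 0 were higher and 8 lower at 6 h, when Ccnd1, Ccnd2, Cdc25a and Myc joined the 4. Cdc25b and Cdc25c, phosphatases that switch on Cdk1 and so act at mitosis, fell at 3 h by 1.01 and 1.31 on the log2 scale and at 6 h by 2.27 and 1.88. Of 17 tested genes of the E2F, RB and DREAM group, 5 were higher and 3 lower at 3 h and 6 and 6 at 6 h. At 3 h both lists of this paragraph had a smaller share called than all genes (54.4%). At 6 h their shares were near or above that of all genes (60.0%). E2f3 was higher at both times (2.08 and 1.45), and E2f1 did not pass against 0 h (0.24 ± 0.132 at 3 h, which library totals alone give as -0.01 and which passed with the replicate block at an adjusted p of 0.0492, and -0.12 ± 0.132 at 6 h). Foxm1, a factor of the mitosis wave, went from 36.8 ± 3.49 CPM at 0 h to 21.1 ± 2.74 at 3 h and 24.8 ± 2.28 at 6 h and was lower at both (-0.80 and -0.57). Myc did not pass at 3 h and was lower at 6 h (-1.76 ± 0.468, adjusted p = 0.00467), at levels of 0.952 CPM at 0 h and 0.274 CPM at 6 h.

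Among inhibitors of cyclin-dependent kinases and p53 target genes, more were higher than lower. Of 14 tested, 6 were higher and 3 lower at 3 h, and 9 higher and 1 lower at 6 h, with medians of 0.12 and 0.65. The shares over all genes were 26.9% higher and 27.5% lower at 3 h, and 29.6% and 30.4% at 6 h. Cdkn1a (chromosome 17, 29090976 to 29100727), which codes the inhibitor p21, was at 2.97, 3.48, 3.26 and 3.09 CPM at 0 h, at 18.6, 17.3, 15.4 and 16.1 CPM at 3 h and at 74.7, 54.5, 69.5 and 57.3 CPM at 6 h. The 3 times did not overlap, and the log2 change was 2.39 ± 0.119 at 3 h (adjusted p = 4.91e-10) and 4.32 ± 0.122 at 6 h (adjusted p = 3.77e-12). Gadd45b, which brakes the cycle after stress, was at 32.3 ± 3.57 CPM at 0 h, 588 ± 82.4 at 3 h and 607 ± 109 at 6 h. Ccng1, a p53 target, did not pass at 3 h (0.14) and was higher at 6 h (2.17 ± 0.0650, adjusted p = 4.96e-12). Trp53 itself was higher at both times, at 1.91 and 1.45.

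Across the other 34 libraries, scaled by totals that include haemoglobin, the medians of the members were lowest with blood markers and low with skin markers. With 1 exception given below, they were higher in all others. With haemoglobin left out of the totals, the blood and skin ranges overlapped. Libraries were sorted for description by haemoglobin above 10% of counts (blood), Krt5 plus Krt14 above 100 CPM (skin), S100a8 plus S100a9 above 10000 CPM (neutrophil) and the remainder, which was labelled monocyte in 7 of 8 cases. By these markers 4 of 10 libraries labelled blood, 2 of 10 labelled neutrophil, 1 of 8 labelled monocyte and 2 of 6 labelled skin went against their label. Of the blood labels, 2 libraries carried skin markers, 1 neutrophil markers and 1 neither, and of the neutrophil and skin labels 2 each carried haemoglobin. The library labelled monocyte that differed carried neutrophil markers. No library was moved to another group for a test, and the levels by marker are given with no test.

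**Figure D4:**
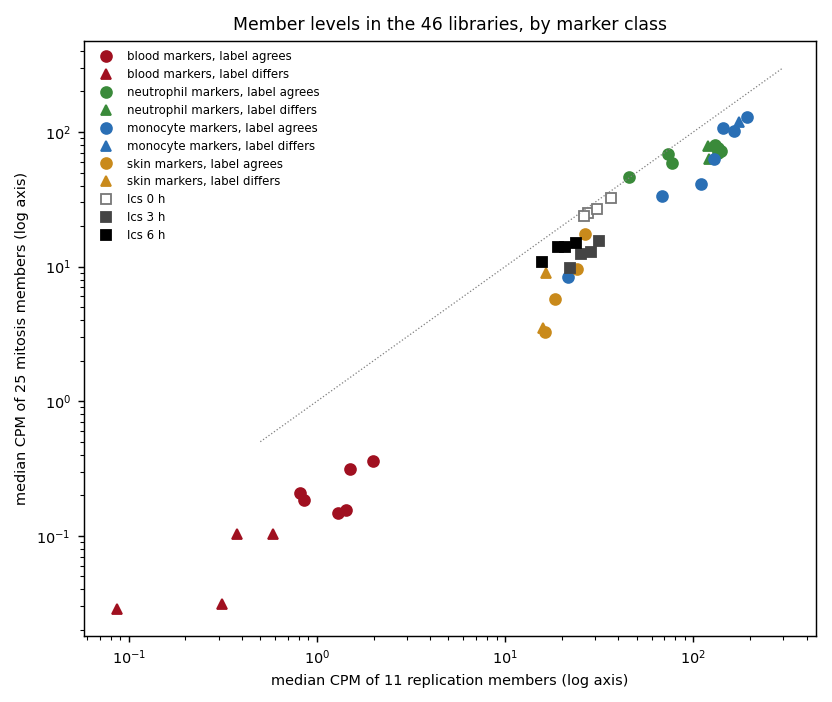
Median CPM of the 25 mitosis members against that of the 11 replication members in all 46 libraries (both axes logarithmic), coloured by marker class, with triangles where markers and label differ, squares for Ics and the dotted line at equal medians. Blood libraries lie between 0.0864 and 1.98 CPM of replication members, skin libraries between 15.9 and 26.7, and neutrophil and monocyte libraries reach 140 and 192. The totals include haemoglobin, and without it the blood and skin ranges overlap.

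The 10 libraries with neutrophil markers had mitosis medians of 46.6 to 79.4 CPM and replication medians of 45.3 to 140 CPM, and every member was detected in each. Within the labelled neutrophil libraries, those with S100a8 plus S100a9 of 53900, 60480 and 71210 CPM had replication medians of 77.1, 73.6 and 45.3 CPM and mitosis medians of 58.7, 68.7 and 46.6 CPM. The 5 others, with 34360 to 42460 CPM, had replication medians of 130 to 140 CPM and mitosis medians of 70.1 to 79.4 CPM. The ratio of the medians was 0.761 to 1.03 in the first 3 libraries and 0.518 to 0.609 in the other 5. This split ran through both treatments, with 2 IVIG libraries and 1 PBS library in the first set. By title, the first 3 libraries begin with S3, S5 and S2 in the order given, and the other 5 all begin with S3. What this prefix stands for is not given in the labels, and its part in the split was not tested. Erythroid genes split the same way, with sums of 80.7 to 160 CPM in the first 3 libraries and 900 to 1159 CPM in the other 5, and their part in the split was not tested.

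The 8 libraries of the remainder had mitosis medians of 8.34 to 128 CPM and replication medians of 21.5 to 192 CPM. The highest was a PBS library and the lowest another PBS library, which lay within the range of the skin libraries and had 8984 genes with at least 5 counts where the other labelled monocyte libraries of this class had 11002 to 16378. In a split seen in the data, 3 libraries labelled monocyte and 1 labelled blood, all with at most 1149 CPM of S100a8 plus S100a9, had mitosis medians of 102 to 128 CPM, and the other 4 libraries, with 2102 to 8070 CPM, had 8.34 to 63.0 CPM. Erythroid genes summed to 21.6 to 34.1 CPM in the first 4 and 253 to 6083 CPM in the other 4, and monocyte genes to 13862 to 23348 and 2324 to 9039 CPM, and their part in the split was not tested. Genes with at least 5 counts numbered 15682 to 16378 in the first 4 and 8984 to 14408 in the other 4. The part of this difference in detection was not tested either. Titles of the 3 labelled monocyte in the first 4 begin with S3 and that of the 1 labelled blood with S5. Those of the other 4 begin with S5 or S2, and the part of this prefix in the split was not tested. Between the labelled neutrophil and monocyte libraries, 0 of 36 members passed the test, where 9.76% of 15634 genes did (6.27% higher in neutrophils and 3.49% lower). Their log2 differences ran from -0.57 to 1.21, the lowest adjusted p was 0.295, and 0 had an unadjusted p under 0.05. The members nearest to the limit were Ube2c (1.21 ± 0.733), Ccna2 (-0.33 ± 0.348) and Knl1 (-0.57 ± 0.711) in mitosis and Mcm6 (-0.43 ± 0.325), Mcm3 (-0.56 ± 0.478) and Tyms (-0.33 ± 0.369) in replication. Without the libraries against their label 0 members passed again, where 26.0% of 17838 genes did, and the members' differences ran from -0.45 to 0.32.

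In skin the members were low. Against labelled monocyte libraries, 21 of 25 mitosis and 11 of 11 replication members were lower in labelled skin libraries, where 14.7% of genes were lower, 19.1% higher and 33.8% called. Against labelled neutrophil libraries the counts were again 21 and 11, where 18.2% were lower, 17.5% higher and 35.7% called. The 4 members that did not pass were Ube2c, Knl1, Aspm and Nusap1 in both comparisons. Without the libraries against their label all 25 and all 11 were lower in both, where 51.4% and 58.7% of genes were called, with medians of -3.64 and -2.86 against monocytes and -3.42 and -2.76 against neutrophils. With library totals alone 4 and 5 replication members were lower. The titles of all labelled skin libraries begin with the same prefix, while those of neutrophils and monocytes begin with several. The part of this prefix in the skin difference was not tested. Some titles repeat a prefix and number across tissues, and the fit made no use of this.

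Mki67 was at 16.3 ± 9.86 CPM in labelled skin (SD, n = 6) and 380 ± 105 CPM in labelled monocytes (n = 8), a log2 difference of -4.53 ± 0.661. Tpx2, the activator of Aurora A on the spindle, and Ccna2 were at -3.66 ± 0.524 and -3.32 ± 0.462 in the same comparison. Of replication members, Mcm3 was at 8.47 ± 1.86 and 143 ± 38.8 CPM (-4.08 ± 0.653), Rrm2 at -3.78 ± 0.609 and Mcm5 at -3.18 ± 0.517. Against labelled neutrophils the members with the smallest p were Tpx2, Ccna2 and Mki67, and Rrm2, Mcm5 and Tk1, with differences between -2.77 and -4.18. These levels are on the TMM scale of the joint fit, which holds the haemoglobin-rich libraries as labelled.

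Within the 6 libraries with skin markers, scaled by totals, the replication members kept close together while the mitosis members spread more. Replication medians were 15.9 to 26.7 CPM and mitosis medians 3.25 to 17.3 CPM. Pcna was at 82.1 to 134 CPM, where the Ics libraries at 0 h had 49.2 to 68.3 CPM on the TMM scale, and Mcm6 was at 25.2 to 54.8 CPM. The ratio of the mitosis median to the replication median, 0.199 to 0.649, lay below the 0.871 to 0.909 of the unstimulated Ics libraries in all 6. This was not particular to skin. The ratio was 0.1 to 0.333 with blood markers, 0.375 to 0.743 in the remainder labelled mostly monocyte and 0.518 to 1.03 with neutrophil markers. The stimulated Ics libraries also lay below the unstimulated ones.

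Blood libraries held few transcripts of the members, and Ube2c stood apart. In the 10 libraries with haemoglobin at 89.2% to 98.3% of counts, mitosis medians were 0.0288 to 0.360 CPM and replication medians 0.0864 to 1.98 CPM, and 1 to 9 members had no count. With haemoglobin left out of the totals the medians were 0.981 to 3.43 and 5.04 to 19.3 CPM. On that scale the libraries with skin markers had 3.25 to 17.3 and 15.9 to 26.7 CPM, so both ranges overlapped. On totals that include haemoglobin, 22 of the 25 mitosis members had a median of at most 1 CPM. On these same totals Mki67 was at 0.403 to 2.95 CPM, and Cdk1 at 0 to 0.264 CPM, with 2 libraries at 0. There a count of 0 allows up to 3 counts, or 0.103 CPM (counting error only).

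Ube2c (chromosome 2, 164769898 to 164778822) was at 24.8, 23.6, 22.4, 21.4, 18.7 and 11.3 CPM in the 6 libraries labelled blood and at 18.7, 14.5, 12.3 and 7.38 CPM in the 4 haemoglobin-rich libraries labelled neutrophil or skin. In the libraries with skin markers it was at 3.46 to 21.2 CPM, so the 2 ranges overlapped. On totals that include haemoglobin, the median of Ube2c in these blood libraries was 1.89 times its own median in the skin libraries. For Nusap1, at 1.35 to 6.91 CPM in blood, the ratio was 0.389, and for the other 34 members it was at most 0.106. With haemoglobin left out of the totals, a scale added after seeing the data, 9 members were above 1, 5 of mitosis and 4 of replication. The ratio was then 29.1 for Ube2c, 7.13 for Nusap1, 2.14 for Mcm7 and 1.00 to 1.37 for Kif23, Ccna2, Mcm5, Aurka, Mcm2 and Tk1. Ube2c had the highest ratio of the 36 members on both scales. Per kilobase of the longest annotated transcript, Ube2c was the highest of the 36 members in 10 of 10 libraries and held 67.7% to 90.5% of the summed level of the 25 mitosis members. The cells that give the Ube2c transcripts were not tested.

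**Figure D5:**
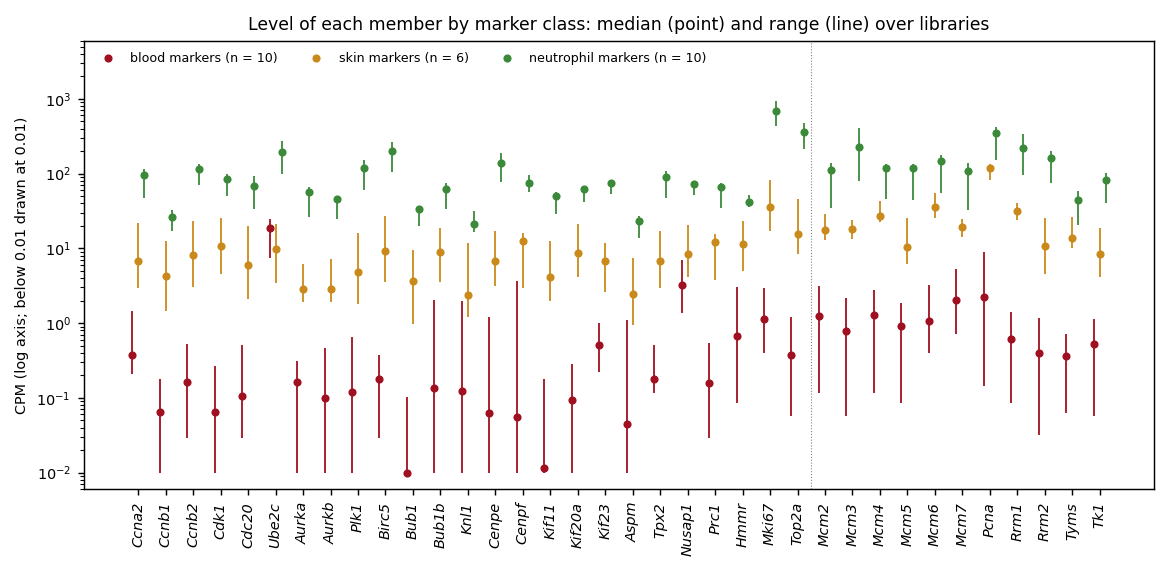
Median (point) and range (line) of each member in libraries with blood (red, n = 10), skin (ochre, n = 6) and neutrophil (green, n = 10) markers, in CPM on a logarithmic axis with values below 0.01 drawn at 0.01. On these totals, which include haemoglobin, the red median of Ube2c, 18.7 CPM, lies above its skin median, 9.89 CPM, and those of the other members lie below theirs, whereas 9 members are above without haemoglobin.

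IVIG was compared with PBS within each labelled tissue, and the directions hold for the names as deposited. A second label field for treatment disagreed with the condition used here in 34 of the 46 libraries and was not used. By edgeR 0 members passed in blood, neutrophils, monocytes and skin, where 0% of 11339, 0% of 14033, 0% of 14415 and 0% of 16171 genes passed. At an unadjusted p under 0.05 there were 81, 73, 286 and 157 genes, of which 0, 0, 0 and 4 were members. DESeq2 called 7, 7 and 3 genes in blood, monocytes and skin. In blood 30 of the 36 members were abundant enough to be tested, and all 36 in the others.

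The member with the smallest p was Cenpf in blood (1.27 ± 1.40), Ube2c in neutrophils (1.15 ± 0.727), Kif20a in monocytes (-0.75 ± 0.420) and Knl1 in skin (4.75 ± 1.30, adjusted p = 1.00). The Ube2c difference in neutrophils rested on the IVIG library that carried haemoglobin and turned to -0.21 without it. Blood medians were 0.29 for mitosis and 0.21 for replication members, neutrophil medians 0.08 and -0.15, and monocyte medians -0.17 and -0.07, beside medians over all genes of 0.02, -0.02 and -0.07.

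In skin all 36 members were above 0, with a median log2 difference of 1.23 for mitosis and 0.46 for replication, beside 0.00 over all genes, and 0 passed. Without the 2 haemoglobin-rich libraries, which leaves 2 and 2, all 36 were again above 0, with medians of 1.57 and 0.42, 18 of 25 mitosis and 4 of 11 replication members had an unadjusted p under 0.05, where 8.54% of the 16934 genes tested did, and 0 passed the adjusted limit. The test called 4 genes there, 3 of them among 7 hair follicle genes. Mki67 was at 82.5 and 61.3 CPM in the 2 IVIG libraries and 30.1 and 16.9 CPM in the 2 PBS libraries, and the mitosis medians were 17.3 and 9.55 against 5.73 and 3.25 CPM.

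Summed hair follicle and fibroblast markers were higher in both of these IVIG libraries than in both PBS libraries. The summed level of hair follicle genes was 520 and 533 CPM in the 2 IVIG libraries and 3.79 and 2.67 CPM in the 2 PBS libraries. Fibroblast genes summed to 26890 and 35470 CPM under IVIG and to 13979 and 16266 CPM under PBS, and keratinocyte genes to 2255 and 5056 against 4306 and 1046 CPM. In the fit of these 4 libraries, 7 of 7 hair follicle, 6 of 6 fibroblast and 8 of 8 keratinocyte genes had log2 differences above 0, with medians of 8.75, 1.01 and 0.50, of which 3, 0 and 0 passed. All 9 monocyte genes were below 0, with a median of -0.47, and 0 passed. Hair growth goes through cycles in which the follicle matrix divides. The 2 libraries with skin markers labelled blood had 2.49 CPM of hair follicle genes with a mitosis median of 8.93 CPM (IVIG) and 3.04 CPM with 3.51 CPM (PBS). Their fibroblast genes summed to 24555 CPM (IVIG) and 20782 CPM (PBS). The part of the hair follicle, of fibroblasts and of the other cells in the skin difference was not tested.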

How the data were processed

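Bulk polyadenylated RNA was sequenced from 46 mouse libraries, and the deposited table gives estimated counts per gene symbol (length-scaled TPM, expected counts), per the labels and the table's name. Per the submitters' processing notes, kallisto 0.46.1 was used with GRCm38. How transcripts were summed is not given in the sources used here. Library totals differ between libraries over the range given in the results. Values were rounded to whole numbers. Genes that share reads with close copies cannot be told apart in such counts.

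Libraries were grouped by their tissue field, condition field and title. Labels do not say which libraries are separate animals or cultures, so p-values measure the spread between these libraries, which may be technical. A check of 77 library pairs found 0 identical ones. The Ics titles repeat the numbers 1 to 4 at each time, and the deviations of same-numbered libraries from their group means correlated at 0.125 to 0.224 between 0 h and 3 h (4 of 4 pairs over 0.1), so the numbers were taken to pair these libraries and the fit with the block is given where it changes a call. Tests used edgeR 4.0.16 (quasi-likelihood F test, TMM scaling, expression filter with minimum count 10) in R 4.3.3, one fit for the 3 Ics times, one per IVIG comparison and one for neutrophils, monocytes and skin, with Benjamini-Hochberg adjustment over all genes tested. The standard error is the log2 change divided by the square root of F. Alternatives were DESeq2 1.42.0, limma 3.58.1 voom, other scalings, no filter, blocks, and leaving out libraries. Tested on data simulated for 3 h against 0 h (14996 genes, 200 changed), the procedure recovered 100% of 4-fold and 64% of 2-fold changes with 13 false calls. Far fewer genes changed in this simulation than the 54.4% called in the data, so its rates need not hold for the data.

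Members, lists and marker rules were chosen with earlier results of these data known. Named were all members in Ics, with full statistics for the 5 of each group with the smallest p at 6 h and those that moved against their group at 3 h, the member with the smallest p for IVIG, the 3 of each group with the smallest p between tissues, and up to 3 called genes per other list, plus Cdkn1a, Myc, E2f1 and Foxm1. Ccnb1, Hmmr, Bub1 and the other per-library values were given after they were seen. Positions are from GENCODE vM21 on GRCm38.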

Additional observations from a re-analysis of the deposited data

Results flagged for a closer look

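In groups of 4 to 10 libraries, a level was looked at again where the gap between 1 library and the nearest other was a large part of the group's range (Dixon's 95% limit). Of 118 sets examined 10 went past it, where chance gives about 1 in 20. Most of the sets were single genes in Ics, and those past the limit there were no more than chance gives. In the Ics experiment, Mki67 was at 167 CPM in 1 library at 6 h where the other 3 had 217 to 224, Aurka at 3.33 CPM in 1 library at 3 h where the others had 5.31 to 5.48, and Birc5 at 28.0 CPM in 1 library at 0 h where the others had 20.7 to 21.6. At 6 h, Knl1 was at 32.2 CPM in 1 library with the others at 22.0 to 22.5, and Kif23 at 30.4 CPM with the others at 26.6 to 27.2. The call for Knl1 at 6 h (adjusted p = 0.0457) lies near the limit.

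The other sets are libraries whose markers go against their label. The blood IVIG library with neither haemoglobin nor skin nor neutrophil markers had a mitosis median of 118 CPM, where the other 4 had 0.183 to 8.93, and a replication median of 176 CPM, where they had 0.811 to 16.5. The blood PBS library with neutrophil markers had 78.6 CPM where the others had 0.147 to 3.51, and 120 CPM where the others had 1.29 to 15.9. The neutrophil IVIG library with haemoglobin had a mitosis median of 0.0288 CPM where the others had 58.7 to 79.4.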

How the results depend on the processing

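In Ics, the counts of mitosis members lower at 3 h and 6 h stayed within 1.5 times under every alternative run (DESeq2, voom, other scalings, no filter, block, 2 times only, each library left out). The count of replication members at 3 h, 2 higher and 1 lower, became 1 and 3 with library totals alone, 1 to 3 higher without 1 library, and 2 lower with the replicate block. From 3 h to 6 h, mitosis members higher ranged from 2 to 4 and replication members lower from 5 to 9 without 1 library. For the 6 h comparisons 3 of 4 same-numbered pairs each correlated over 0.1 (lowest 0.0723 and 0.0863), short of the rule used for pairing, although each of the 12 libraries correlated best with its own number. With the block there, Nusap1 (-0.41, adjusted p = 0.000941) and Tyms (-0.54, 0.0327) were lower at 6 h, Knl1 no longer passed (-0.40, 0.0583) and Foxm1 rose from 3 h to 6 h (0.24, 0.0397). The block changed no other call of a named gene and no other count by over 1.5 times. Members near 0 changed sign. At 3 h these were Kif23 (0.00265 with DESeq2, -0.11 to 0.033 without 1 library), Mcm6 (-0.25 with library totals, -0.00217 with 2 times only, -0.12 to 0.18 without 1 library), Mcm2, Mcm5, Mcm7, Myc and E2f1 with library totals (-0.020, -0.13, -0.16, -0.11 and -0.0090), and, without 1 library, Mcm5 (-0.00744 to 0.21), Mcm7 (-0.011 to 0.15) and Rrm2 (-0.20 to 0.015). At 6 h they were Bub1 (0.021 with DESeq2, 0.0030 with relative log expression, 0.010 with no filter, -0.14 to 0.089 without 1 library), Mcm3 (-0.12 with library totals, -0.057 to 0.23 without 1 library) and Mcm7 (-0.14 and -0.029 to 0.093), and from 3 h to 6 h Mcm7 (0.020 and -0.11 to 0.057). IVIG genes called, 0 by edgeR, were 7, 7 and 3 in blood, monocytes and skin with DESeq2, 5 in blood and 4 in skin without libraries against their label and 1 in monocytes with library totals. Ube2c between neutrophils and monocytes was -0.015 with library totals, and for IVIG in neutrophils -0.21 to 1.43 without 1 library. Genes called there were 3220 with voom, 84 with library totals, 4629 without libraries against their label and 5608 also without the third monocyte PBS library, an alternative chosen after seeing the data. For skin against monocytes they were 2157 with library totals, 9763 with no filter, 9165 and 10412, and against neutrophils 3172, 9915 and 10476, with 4 and 5 replication members lower under library totals. The cause was not tested.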
